A study of Mus musculus with 108 samples.

Results

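Granulocytes from the brains of mice with brain metastases, taken at day 3 of a schedule of 1 fraction of 10 Gy whole-brain radiotherapy, were compared with granulocytes from unirradiated brains. The comparison took the 3 libraries titled 1x10 D3 and set them against 9 unirradiated granulocyte libraries, 4 of the small and 5 of the large tumour stage, with the mean of both stages as the reference. These 12 libraries belong to a series of 108, of which 23 are granulocyte libraries. All mice were athymic nude on Balb/C (strain CAnN.Cg-Foxn1nu/Crl), and thus of a kind that lacks a functional thymus and so has few mature T cells, and the tumour model is lung-to-brain metastasis. The cells were sorted by flow cytometry from mouse brain and total RNA was sequenced. The irradiated mice carry no tumour stage in the labels, and the event that starts the count of days is not in the labels. Nor do they say whether libraries of a group came from separate mice or pools, so the p-values measure only the spread between these libraries, which may be technical. A granulocyte group given 5 fractions of 2 Gy and also taken at day 3 (4 libraries) served as a second comparison.

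Granulocytes in these sorts are mainly neutrophils, short-lived cells that are made in the bone marrow, pack antimicrobial proteins into granules in an ordered sequence and leave the blood along chemokine gradients. The granule genes are transcribed while the cell is still maturing in the marrow, so their transcripts are background markers of how young a neutrophil is. Ionising radiation breaks DNA, and in cells that sense the breaks the transcription factor p53 turns on a set of targets that includes the cell cycle inhibitor Cdkn1a, the p53 antagonist Mdm2 and Ccng1. Interferon-stimulated genes and genes driven by NF-kB are other classes known to respond to irradiation in myeloid cells.

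The irradiated libraries held 8305611 to 11570854 counts and 16135 to 16883 detected genes, and the unirradiated ones 3805740 to 16646009 counts and 7531 to 28004 genes. Small-stage library 1 stands apart, with the fewest counts and genes and a median Spearman correlation of 0.66 with the other granulocyte libraries, so list counts that change without it are given both ways. Sums, ranges and most fold changes of single genes include it. It held the highest sums of macrophage, microglia and dendritic cell markers (4610, 2850 and 52.7 CPM). It also held the lowest sums of eosinophil markers and mitosis genes (1.46 and 4.88 CPM). The labels name no batch or date. Levels below are CPM, a gene's reads scaled to a fixed library size, with TMM factors. They compare a gene between libraries and not one gene with another, because CPM is not corrected for length. In bulk libraries, fewer cells of a type and less RNA per cell cannot be told apart.

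The libraries carried the markers of their labelled cell type. Csf3r, the receptor for the granulocyte growth factor G-CSF, stood at 7630, 8160 and 5840 CPM in the irradiated libraries and at 5500 (lowest), 6410 (median) and 13600 (highest) in the unirradiated ones. S100a8, a subunit of calprotectin, stood at 1460, 1900 and 2670 against 1100, 1420 and 6050 CPM. For both genes the irradiated values lay inside the unirradiated range. The neutrophil surface protein gene Ly6g was at 51.9, 140 and 68.6 against 25.6, 67.8 and 429 CPM. Summed over the 11 granulocyte markers, the irradiated libraries reached 18700, 22800 and 20200 CPM, and 6 of the 9 unirradiated libraries lay below that range, at 14000 to 17900 CPM. The single markers did not share a direction: 3 had a fold change above 0 and 8 below. Their median log2 fold change was -0.10 (0.18 without small-stage library 1). At an unadjusted p under 0.05 of edgeR, 1 was higher and 3 were lower (1 and 1 without that library). Of the 10 eosinophil markers, Epx and Prg2 were at 0 in all 3 irradiated libraries, while Siglecf, which eosinophils and some neutrophils in tumours express, was at 160, 228 and 185 CPM against 1.46, 164 and 258. The 4 eosinophil markers that were tested all had a fold change above 0, with a median of 0.88 on the log2 scale (0.70 without small-stage library 1) and 0 higher at an unadjusted p under 0.05. The list's sum was 217, 263 and 209 CPM, and of the unirradiated libraries 5 lay below that range (1.46 to 183 CPM), 3 within it and 1 above it at 275 CPM. Most of the sum in the irradiated libraries was Siglecf. Epx, Prg2, Prg3, Ear1, Ear6 and Alox15 did not pass the count filter and were not tested.

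Transcripts of other myeloid cells were also present, and most unirradiated libraries had more of the macrophage and microglia markers than the irradiated ones, with no marker past edgeR's threshold. The 12 macrophage markers summed to 539, 477 and 574 CPM in the irradiated libraries and to 299, 2030 and 4610 CPM (lowest, median, highest) in the unirradiated ones, of which 6 lay above the irradiated range. The 10 microglia markers summed to 258, 308 and 199 CPM against 257, 762 and 2850 CPM, with 8 of 9 unirradiated libraries above the irradiated range. The dendritic cell marker sum was 10.6, 8.03 and 5.24 CPM, below all 9 unirradiated libraries (12.8 to 52.7 CPM). It is among 42 list sums, and the separation of sums was not tested. All 9 dendritic cell markers tested had a fold change below 0, with a median of -1.48 on the log2 scale (-1.08 without small-stage library 1). At edgeR's unadjusted p threshold 0 of them were higher and 0 lower, and 0 lay below all 9 unirradiated libraries as single genes. The monocyte marker sums overlapped, at 979, 1100 and 763 against 427, 1060 and 2060 CPM. Of the 9 monocyte markers tested, however, 8 had a fold change below 0 and 1 above. The median log2 fold change of these markers was -1.07 (-0.61 without small-stage library 1). For macrophage markers, unirradiated libraries of both stages lay on either side of the irradiated range.

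**Figure D1:**
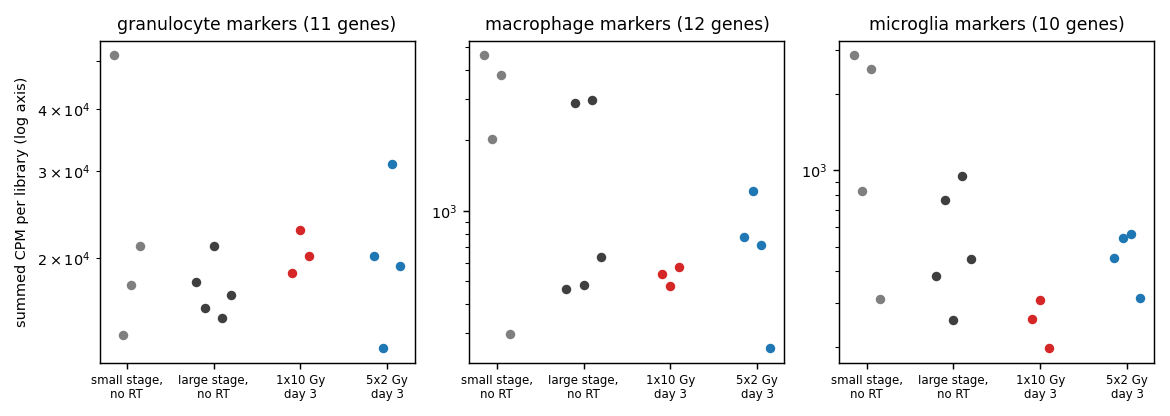
Summed CPM per library (log axis) of granulocyte, macrophage and microglia markers in unirradiated granulocytes of the small and large stage, after 1x10 Gy and after 5x2 Gy, both at day 3. Each point is a library. The 3 libraries after 1x10 Gy lie together at the low end of the microglia marker sums (199 to 308 CPM), where the unirradiated libraries spread from 257 to 2850 CPM.

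No gene passed the threshold between irradiated and unirradiated granulocytes in the edgeR fit of the 23 granulocyte libraries. With that tool's quasi-likelihood test, 0 of 14230 genes (0%) had a Benjamini-Hochberg adjusted p under 0.05, and the smallest was 0.243, for Slc15a2. The same contrast in fits made jointly with another population, described further on, called 0 of 15306 genes (0%) with monocytes, and Slc15a2 alone with monocyte-derived macrophages (1 of 16794, 0.00595%) and with microglia (1 of 16947, 0.0059%). In the granulocyte fit, at an unadjusted p under 0.05, the test counted 857 genes, 128 higher (0.9%) and 729 lower (5.12%) in the irradiated libraries. DESeq2's Wald test called 3 of 11849 genes higher (0.0253%) and 125 lower (1.05%), all 125 with a negative fold change and an unadjusted p under 0.05 in edgeR. limma voom with quality weights called 0 genes, with a smallest adjusted p of 0.0625. Without small-stage library 1, edgeR called 0 genes, with 448 higher and 907 lower at an unadjusted p under 0.05 and a smallest adjusted p of 0.481.

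The spread between libraries set how small a change could be seen. The median standard error of a log2 fold change was 0.76 over all genes tested and 0.57 over the 6580 genes averaging at least 10 CPM. The median log2 fold change was -0.07 over all genes tested and 0.09 over the more abundant ones. A fold change below 0 stood in 53.7% of all genes tested and in 43.8% of the more abundant ones. Counts of list members above or below 0 are to be set beside these shares. In the gene lists that follow, a member is said to be higher or lower at an unadjusted p under 0.05 of edgeR, and these counts are set beside the 0.9% and 5.12% of all genes. List counts given without small-stage library 1 are instead to be set beside 448 higher and 907 lower of the 14209 genes tested without it. Every gene named below that was tested had an adjusted p of 0.772 or more with edgeR in the granulocyte fit, apart from Slc15a2, so its difference did not hold up over all genes tested with that tool. A fit with RLE scaling in place of TMM shifted the log2 fold changes of all genes by a median of -0.16, and list medians whose sign depends on it are marked. Without the 3 libraries of doubtful quality, named under processing, RLE and TMM differed by a median of -0.04. Under RLE scaling without them, 3 list medians differed in sign from the main fit: identity, double-strand break repair and granulocyte marker genes. The other medians marked below kept their sign there.

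Granule genes of successive stages of maturation had list medians of different sign, with no gene past the threshold. The primary granule gene Elane, a protease packed at the promyelocyte stage, was at 0 in all 3 irradiated libraries, and Mpo, myeloperoxidase, at 0.0873 to 0.238 CPM. The unirradiated libraries reached no more than 0.762 CPM for Elane and 2.39 CPM for Mpo. The 17 specific granule genes, made next in maturation, had a median log2 fold change of -0.56, with 0 higher and 4 lower. Without small-stage library 1 the median was -0.14, with 1 higher and 2 lower. Of the 17, 7 had a fold change above 0 and 10 below. Their sums overlapped, at 5030, 6530 and 6520 CPM against 4000, 6090 and 30200 CPM. Lactoferrin, Ltf (GRCm38 chr9:111019271-111042767, plus strand), was at 38.2, 118 and 52.4 CPM against 41.8, 356 and 1520 CPM in the unirradiated libraries. All 3 irradiated values thus sat below the unirradiated median, while 1 of them alone lay below the lowest unirradiated library. Its log2 fold change was -2.58 ± 0.97 (SE), with an adjusted p of 0.772 in edgeR and 0.0358 in DESeq2. Chil3, a chitinase-like protein of the same granules (chr3:106147554-106167564, minus strand), was at 2.93, 12.7 and 6.67 against 12.3, 55.2 and 567 CPM, a log2 fold change of -4.10 ± 1.21 with an adjusted p of 0.772 in edgeR and 0.00367 in DESeq2. The groups overlapped for Chil3 through irradiated library 2 only.

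The antimicrobial genes Camp and Ngp varied more between libraries than between groups. Camp, the cathelicidin, was at 0.0914, 23.1 and 3.22 CPM against 0, 90.2 and 1600, and Ngp at 5.76, 93 and 88 against 5.24, 421 and 6220 CPM. Their log2 fold changes of -4.35 ± 2.02 and -3.76 ± 1.66 came with adjusted p of 0.805 and 0.782 in edgeR. The 22 tertiary granule and late maturation genes had 16 members above 0 and 6 below, with 1 higher (3 without small-stage library 1) and 0 lower. Their median was 0.19, which turned negative under RLE scaling. Mmp9, the gelatinase of that compartment, was at 2800, 3130 and 2030 against 1090, 1640 and 3120 CPM, a log2 fold change of 0.58 ± 0.27 (adjusted p of 0.796 in edgeR). The stefin genes of mature neutrophils Stfa2 (23.7, 37.7 and 135 against 0.488, 24.2 and 61.5 CPM) and Stfa2l1 (239, 201 and 536 against 71.6, 121 and 345 CPM) overlapped too.

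Identity and trafficking genes were split between both directions. The 22 neutrophil identity genes had a median of -0.10, with 1 higher and 1 lower, and without small-stage library 1 that median was positive (0.13), with 1 higher and 0 lower. Cxcr2, the receptor that draws neutrophils out of the marrow, was at 3210, 3690 and 3180 against 1730, 2510 and 4220 CPM, a log2 fold change of 0.32 with a 95% interval of -0.22 to 0.87. The interval of Csf3r ran from -0.46 to 0.49. Of 20 tested ageing and trafficking genes 1 was higher and 2 were lower, with a median of 0.02 that turned negative under RLE scaling. The higher one was Itgb2, the shared beta chain of the leukocyte integrins, at 1750, 1560 and 1330 against 812, 1120 and 1340 CPM. Cxcr4, the receptor for return to the marrow, was at 312, 231 and 281 against 175, 322 and 448 CPM. Il1r2, the decoy receptor of interleukin 1, was the identity gene counted lower, at 2160, 2560 and 2220 against 1500, 3810 and 5330 CPM.

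**Figure D2:**
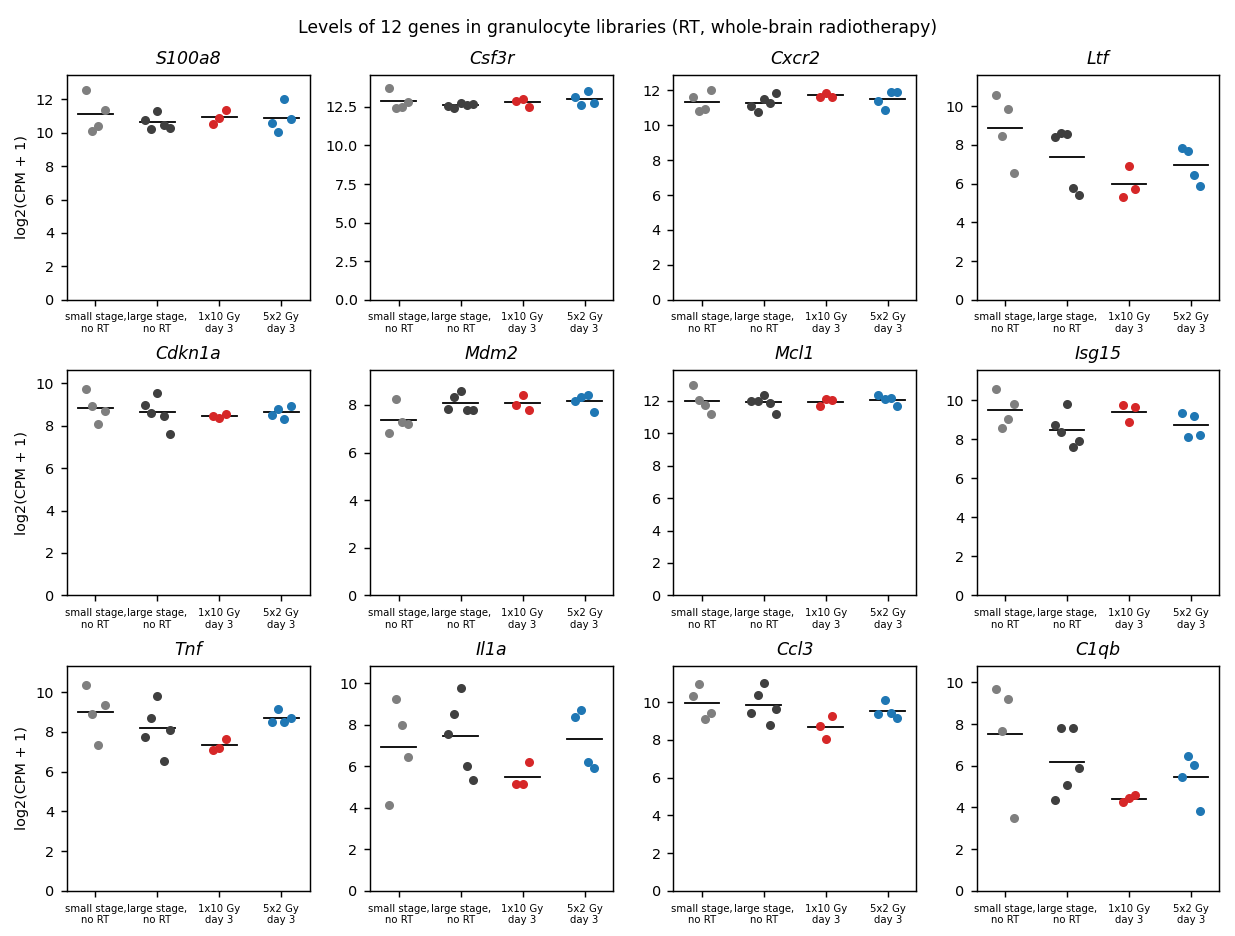
Level of 12 genes, as log2(CPM + 1), in each granulocyte library without radiotherapy (small and large stage) and at day 3 after 1x10 Gy or 5x2 Gy. Points are libraries and the bar is the group mean. For Csf3r, Cxcr2, Mcl1 and Cdkn1a the 3 libraries after 1x10 Gy lie inside the range of the 9 unirradiated ones, for Tnf, Il1a and C1qb they lie in its lower part, and for Ltf 1 of the 3 lies below it.

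No p53 target passed the threshold at day 3. Cdkn1a, which encodes the cell cycle inhibitor p21 (chr17:29090976-29100727, plus strand), was at 346, 333 and 379 CPM in the irradiated libraries against 197, 413 and 844 CPM. The 3 irradiated libraries were close to each other and lay in the lower part of the unirradiated range. The log2 fold change was -0.41 ± 0.39, with a 95% interval of -1.20 to 0.38 and an adjusted p of 0.918 in edgeR. Mdm2, the ubiquitin ligase that degrades p53, was at 258, 337 and 218 against 112, 221 and 381 CPM, with an interval of -0.48 to 1.07. Ccng1 was at 116, 123 and 58.7 against 0.977, 65.8 and 127 CPM, and the death effector Bax at 40.1, 21.9 and 61.2 against 0, 34.8 and 73.3 CPM. Both overlapped the unirradiated libraries fully. Phlda3, an Akt inhibitor, was too low to be tested in the granulocyte fit, at 0.732, 0.611 and 0.476 CPM against 0, 0 and 0.609, and Eda2r was at 0.914, 0 and 0 CPM. Of the 28 p53 targets tested, 1 was higher and 5 were lower, with a median of -0.37. Without small-stage library 1 there were 0 higher and 5 lower, with a median of -0.21. The higher one was Zmat3, an RNA-binding protein gene, at 2.93, 1.92 and 4.05 against 0, 0.995 and 3.42 CPM. Pmaip1, which encodes the death-promoting protein Noxa, was among the lower ones, at 473, 370 and 315 against 379, 555 and 1160 CPM.

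Survival and death genes did not pass the threshold either. Mcl1, on which neutrophil survival depends, was at 3260, 4530 and 4210 against 2290, 4150 and 8240 CPM, with a log2 fold change of -0.09 and a 95% interval of -0.74 to 0.57. Bcl2l1, another survival gene, was at 261, 443 and 365 against 241, 492 and 836 CPM. Of the 27 tested Bcl-2 family and cell death genes 0 were higher and 4 lower (2 and 4 without small-stage library 1), with a median of -0.11. Besides Pmaip1 these 4 were Bcl2a1a, Bcl2a1b and Bcl2a1d, NF-kB targets that protect myeloid cells from death. Bcl2a1d was at 4.30, 3.93 and 5.24 against 4.74, 10.5 and 60.6 CPM. The Bcl2a1 genes are near-identical copies, so reads may be split among them and their values are uncertain. Bad, a death-promoting member, was the single gene of the list with all irradiated libraries above the unirradiated ones, at 14, 20.5 and 29.5 against 0, 12.1 and 13.8 CPM, with an adjusted p of 0.822 in edgeR. Such a separation stood in 1.03% of all genes tested.

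**Figure D3:**
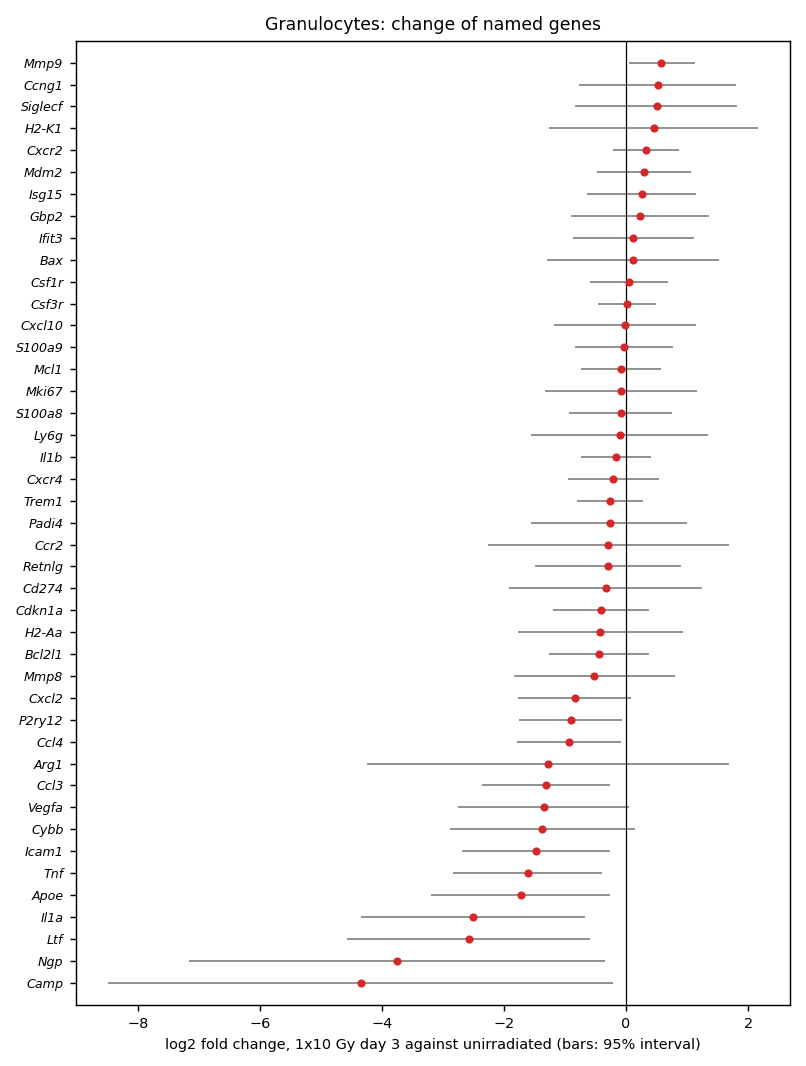
Log2 fold change, 1x10 Gy day 3 against unirradiated, of named genes that were tested, with 95% intervals. The intervals of most genes cross 0. Those of Csf3r (-0.46 to 0.49) and Mcl1 (-0.74 to 0.57) are narrow around it, while those of Camp and Ngp span several log2 units.

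Interferon-stimulated genes were mostly above 0 without passing the test. Of 35 type I interferon-stimulated genes, 27 had a fold change above 0, 2 were higher (1 without small-stage library 1) and 1 was lower, with a median of 0.17 that turned negative under RLE scaling. Isg15, a ubiquitin-like modifier, was at 848, 473 and 788 against 195, 427 and 1540 CPM, so all 3 irradiated libraries lay above the unirradiated median and below the highest. Ifit3, which encodes a sensor-associated antiviral protein, was at 1260, 450 and 909 against 250, 425 and 2330 CPM. The members counted higher were Oas3, which makes the RNase L activator (805, 629 and 323 against 136, 281 and 601 CPM), and Dhx58, which encodes the RNA sensor LGP2 (127, 114 and 95.9 against 36.3, 60.8 and 108 CPM). The member counted lower was Ifi44, at 5.03, 3.67 and 3.22 against 1.34, 8.65 and 157 CPM. The interferon gamma list had 0 of 16 members higher (1 without small-stage library 1) and 0 lower, and its median of 0.15 also turned negative under RLE scaling. Cxcl10, a chemokine that both interferon types induce, was at 47.7, 39.4 and 59.7 against 4.38, 28.7 and 216 CPM.

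Among antigen presentation genes, Tap2 alone had no overlap between the groups. Over all genes tested, 1.03% had all 3 irradiated libraries above all 9 unirradiated ones. Tap2, a subunit of the peptide transporter for MHC class I, was at 80.9, 85.9 and 63.1 CPM in the irradiated libraries and at 24.9, 45.3 and 55.1 in the unirradiated ones, which did not overlap. Its log2 fold change was 0.83 ± 0.38 (0.73 ± 0.25 without small-stage library 1), with an adjusted p of 0.798 in edgeR and 0.579 in DESeq2. It was 1 of the 21 MHC class I and immunoproteasome genes, of which 1 was higher (2 without small-stage library 1) and 0 lower, with a median of 0.13 that turned negative under RLE scaling. The immunoproteasome subunit gene Psmb8 was at 171, 120 and 213 against 67.3, 86.9 and 217 CPM. H2-K1, which encodes a classical class I heavy chain and shares sequence with its relatives, was at 24.1, 207 and 39.1 against 16.2, 39.8 and 297 CPM. MHC class II transcripts were low in all granulocyte libraries, with H2-Aa at 4.39, 1.75 and 3.45 against 2.59, 4.51 and 6.72 CPM and 0 of 9 tested members higher or lower.

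Inflammatory cytokine and NF-kB genes stood lower than most lists. Of 25 tested members, 22 had a fold change below 0, 10 were lower and 0 higher, with a median of -0.84 (-0.65, with 8 lower, without small-stage library 1). Tnf was at 137, 147 and 202 CPM in the irradiated libraries against 92.8, 416 and 1300 CPM. All 3 irradiated libraries lay below the unirradiated median and above the lowest library. The log2 fold change was -1.61 ± 0.59, with an adjusted p of 0.772 in edgeR and 0.0678 in DESeq2. Il1a, an alarmin of the interleukin 1 family (chr2:129299610-129309972, minus strand), was at 34.1, 34.6 and 74.2 against 16.6, 190 and 875 CPM, a log2 fold change of -2.51 ± 0.90 with an adjusted p of 0.772 in edgeR and 0.0429 in DESeq2. Tnfaip3, which encodes the NF-kB inhibitor A20, was at 408, 698 and 488 against 547, 1170 and 3860 CPM, a log2 fold change of -1.80 ± 0.56 with an adjusted p of 0.0324 in DESeq2 and 0.772 in edgeR. For Tnfaip3 the groups overlapped through irradiated library 2 only.

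Other feedback inhibitors of the same pathway lay lower too. Nfkbia was at 1320, 1410 and 2130 against 1460, 2690 and 6110 CPM, and Nfkbiz at 558, 964 and 802 against 676, 1580 and 4460 CPM. Their log2 fold changes were -0.97 ± 0.37 and -1.36 ± 0.50, with an adjusted p of 0.772 for each in edgeR. Il1b, the main secreted interleukin 1 of neutrophils, did not share this shift, at 6350, 6340 and 7950 against 5260, 6010 and 16700 CPM, with a log2 fold change of -0.16 and a 95% interval of -0.74 to 0.41. Ptgs2, the inducible cyclooxygenase, was at 1340, 1150 and 662 against 745, 1980 and 4490 CPM. Immediate early genes, which also respond to tissue digestion, had all 25 of 25 members below 0, with 3 lower and a median of -0.44 (2 lower and -0.38 without small-stage library 1). Among them Jun was at 242, 180 and 463 against 66.4, 765 and 1450 CPM, and Egr1 at 1520, 2050 and 1010 against 793, 3130 and 4640 CPM.

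Chemokine genes had 15 of 18 tested members below 0, with 6 lower, 0 higher and a median of -1.13 (4 lower and -1.05 without small-stage library 1). Ccl3, a chemoattractant for myeloid cells, was at 430, 265 and 623 against 441, 800 and 2040 CPM, and Ccl4 at 488, 309 and 702 against 497, 976 and 1890 CPM. For both genes irradiated libraries 1 and 2 lay below all 9 unirradiated ones and library 3 did not. The log2 fold changes were -1.32 ± 0.51 and -0.94 ± 0.41, with adjusted p of 0.772 and 0.782 in edgeR. Cxcl1 and Cxcl2 recruit further neutrophils. Cxcl1 was at 33.0, 61.0 and 52.7 against 41.6, 141 and 767 CPM, and Cxcl2 at 1610, 1560 and 2050 against 959, 2700 and 6290 CPM. Cxcl16, a membrane-bound ligand of Cxcr6 (chr11:70453983-70459984, minus strand), was at 7.50, 4.37 and 3.22 against 8.92, 20.4 and 39.3 CPM, with no overlap, a log2 fold change of -2.20 ± 0.71 and an adjusted p of 0.772 in edgeR and 0.00951 in DESeq2. Over all genes tested, 0.176% had all 3 irradiated libraries below all 9 unirradiated ones. Cxcl16 is also abundant in the other populations, where unirradiated medians were 334 CPM in monocytes, 598 in monocyte-derived macrophages (labelled BMDM) and 262 in microglia, and whether the other cells account for its level in the granulocyte libraries was not tested.

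Genes linked to tumour-associated neutrophils had 20 of 25 members below 0, with 8 lower, 0 higher and a median of -0.58 (7 lower and -0.51 without small-stage library 1). Several of these 8, Tnf, Ccl3, Ccl4, Icam1, Jun and Nfkbia among them, also stand in the inflammatory or chemokine lists or the immediate early one. Icam1, the adhesion molecule of activated neutrophils, was at 193, 129 and 218 against 125, 488 and 1500 CPM. Spp1, osteopontin (log2 fold change -3.55 ± 1.10), was at 30.6, 21.9 and 24.1 against 53.9, 116 and 1030 CPM with no overlap, and with an adjusted p of 0.772 in edgeR and 0.00951 in DESeq2. As given for Cxcl16, 0.176% of all genes tested separated in that direction. Trem2, a lipid receptor of macrophages and microglia, was at 3.66, 4.19 and 4.41 against 1.86, 12.6 and 117 CPM. Of genes that mark the tumour-promoting state, Siglecf was given above, Cd274 (the checkpoint ligand PD-L1) was at 699, 255 and 491 against 5.37, 609 and 1280 CPM, and Vegfa at 89.2, 74.3 and 67.4 against 59.8, 101 and 621 CPM. Arg1 was close to absent in both groups, at 1.37, 0.349 and 1.07 against 0, 0.905 and 14.2 CPM.

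**Figure D4:**
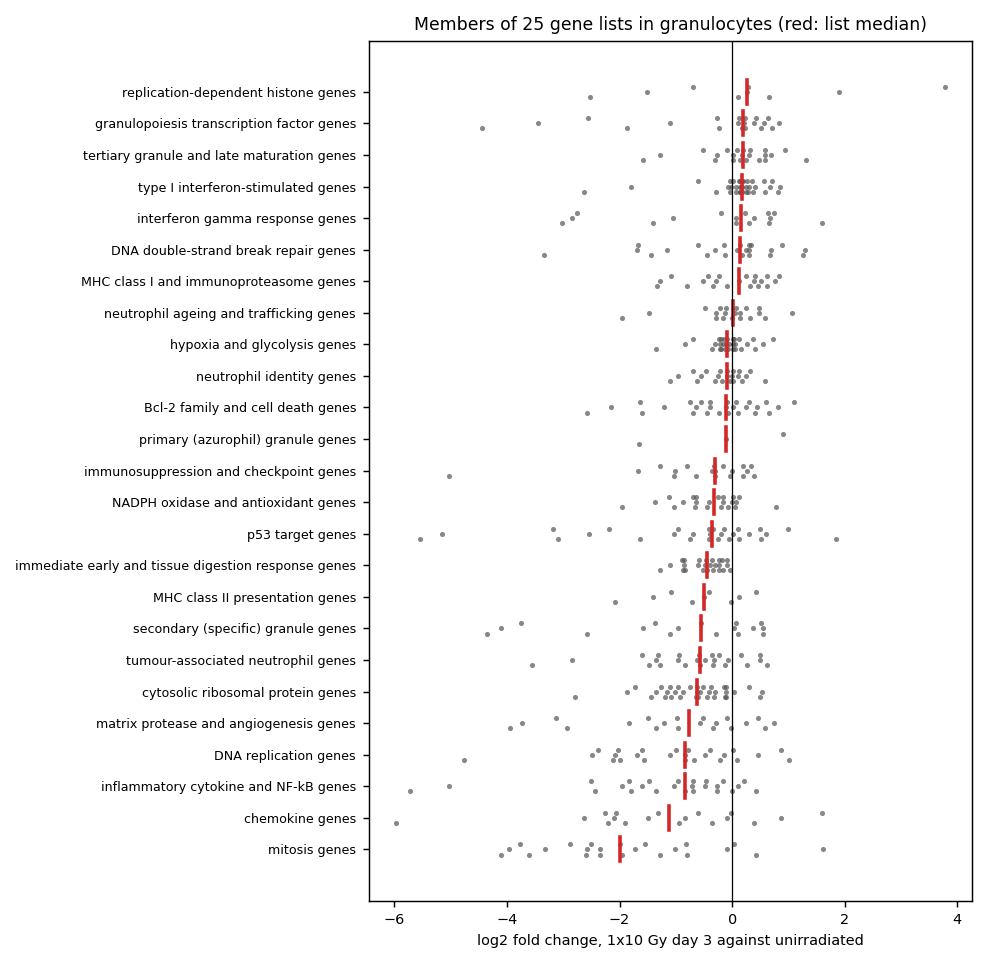
Log2 fold change of each tested member of 25 gene lists in granulocytes, 1x10 Gy day 3 against unirradiated, with a red bar at each list's median. Mitosis (-1.99), chemokine (-1.13), inflammatory and NF-kB (-0.84) and DNA replication genes (-0.84) lie furthest to the left, beside a median of -0.07 over all genes tested. Under RLE scaling the median turns negative for 7 lists drawn right of 0: tertiary granule, type I interferon, interferon gamma, MHC class I, double-strand break repair, granulopoiesis, and ageing and trafficking genes. Without the 3 doubtful libraries, RLE scaling turns only the double-strand break repair median of these 7 negative.

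Transcripts of dividing cells were scarce in the granulocyte libraries. The 23 tested mitosis genes had a median of -1.99, with 20 below 0, 5 lower and 0 higher, and the median was -2.19, with 6 lower, without small-stage library 1. Many members were near the detection limit. Top2a, which untangles chromosomes, was at 0, 0.0873 and 0.357 against 0, 0.721 and 15.2 CPM, and Cdk1, the mitotic kinase, at 0.274, 0.0873 and 0.119 against 0, 0.451 and 16.7 CPM. The proliferation marker Mki67 did not share the low values, at 19.4, 17.6 and 22.5 against 0.977, 22 and 35.2 CPM, with a log2 fold change of -0.09 ± 0.61. Summed over all 24 mitosis genes, the irradiated libraries lay at 147, 163 and 172 CPM and the unirradiated ones at 4.88, 167 and 328 CPM. Most of that sum was Kif23, a kinesin of cytokinesis named after its values were seen, at 114, 137 and 130 CPM in the irradiated libraries beside an unirradiated median of 113 CPM. The 26 DNA replication genes summed to 89.6, 127 and 86.2 CPM against 124, 177 and 352 CPM, with 8 of 9 unirradiated libraries above the irradiated range and 1 within it. Of the 25 tested, 1 was lower and 0 higher, and 5 were lower without small-stage library 1. The 23 tested double-strand break repair genes had 0 higher and 1 lower (2 without small-stage library 1), and a median of 0.14 that turned negative under RLE scaling and without small-stage library 1.

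The remaining lists held few members past an unadjusted p of 0.05. Hypoxia and glycolysis genes had 0 of 30 higher or lower and a median of -0.08 (1 higher and a median of 0.01 without small-stage library 1), with Ldha, lactate dehydrogenase, at 1600, 1470 and 2180 against 539, 1200 and 1670 CPM. NADPH oxidase and antioxidant genes had 0 of 22 (1 in each direction without that library), with Cybb, the catalytic subunit of the respiratory burst, at 69.7, 111 and 56.8 against 81.2, 115 and 1100 CPM. The highest of those unirradiated values is from small-stage library 1. The 35 tested ribosomal protein genes had 3 lower and 0 higher, with a median of -0.62 (2 lower and -0.61 without small-stage library 1). They share reads with many pseudogenes, so their counts are uncertain. The 20 granulopoiesis transcription factor genes had 3 lower and 0 higher, or 3 lower and 4 higher without small-stage library 1. Among the lower ones Gfi1, a repressor needed for neutrophil formation, was at 0.183, 0 and 0 against 0, 0.999 and 4.25 CPM. The list's median of 0.19 turned negative under RLE scaling.

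Genes of other cell types made up part of the lower calls of DESeq2, in the same direction as the marker sums. Of the 125 genes, 11 are in a marker list (1 of them Ltf, of the granulocyte list), 8 are markers of microglia, macrophages, monocytes or dendritic cells, and 60 average at least 10 CPM on their higher side. The genes of this paragraph were chosen after their values were seen. C1qb, a complement C1q chain of macrophages and microglia (chr4:136880129-136886187, minus strand), was at 17.9, 20.9 and 22.9 against 10.2, 202 and 829 CPM, a log2 fold change of -3.37 ± 0.96 with an adjusted p of 0.772 in edgeR and 0.00414 in DESeq2. C1qc was at 14.5, 14.8 and 17.2 against 10.4, 152 and 609 CPM, and the microglial matrix gene Sparc (chr11:55394500-55423183, minus strand) at 7.68, 18.5 and 9.53 against 7.43, 74.4 and 849 CPM. In each case the irradiated libraries were close together near the low end of the unirradiated range. Siglech, a marker of microglia and plasmacytoid dendritic cells, was at 3.75, 8.03 and 2.86 against 4.03, 20.7 and 1010 CPM. All 10 microglia markers had a fold change below 0, with 8 lower at an unadjusted p under 0.05, as had 9 of 10 tested macrophage markers, with 5 lower. Without small-stage library 1, 8 microglia and 4 macrophage markers were lower. Krt18, an epithelial keratin, was at 0.732, 0.611 and 3.57 against 0, 25.6 and 82.6 CPM. The part of these other cells in the lower values of Tnf, Il1a, the chemokines and Spp1 was not tested.

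Few genes separated all irradiated from all unirradiated libraries. The 3 irradiated libraries lay above all 9 unirradiated ones for 147 genes (1.03% of those tested) and below all 9 for 25 (0.176%). Without small-stage library 1 these counts were 223 (1.57%) and 186 (1.31%) of the same genes. The genes named in this paragraph were chosen after their values were seen. Tmpo, which encodes a nuclear lamina protein, was at 178, 167 and 161 CPM against 24.4, 76.7 and 102, with a log2 fold change of 1.25 ± 0.46 (1.09 ± 0.41 without small-stage library 1). Pxn, the focal adhesion adaptor paxillin, was at 731, 719 and 563 against 105, 431 and 513 CPM, and Jaml, a junctional adhesion molecule of neutrophils that helps them cross epithelia, at 645, 575 and 661 against 157, 373 and 547 CPM. Zc3h12d, an RNase of the Regnase family, was at 25.6, 27.9 and 26.2 against 0.488, 3.97 and 17.9 CPM. Among the genes below all 9, Id2, an inhibitor of basic helix-loop-helix factors, was at 164, 116 and 122 against 185, 294 and 517 CPM (log2 fold change -1.27 ± 0.43, adjusted p of 0.772 in edgeR and 0.0300 in DESeq2). Kif2c, a mitotic kinesin, was at 0.183, 0.437 and 0 against 0.717, 2.61 and 12.1 CPM.

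The smallest p belonged to Slc15a2, a proton-coupled peptide transporter (chr16:36750177-36784962, minus strand). It was at 30.7, 45.3 and 0.119 CPM in the irradiated libraries against 0, 0.165 and 0.974 CPM, a log2 fold change of 6.43 ± 1.24 with an adjusted p of 0.243 in edgeR and 0.0274 in DESeq2. Irradiated library 3 lay among the unirradiated libraries, and leaving it out made Slc15a2 the single gene that edgeR called, with an adjusted p of 0.0433. With all 3 irradiated libraries, the joint fits gave its granulocyte change an adjusted p of 0.191 beside monocytes, 0.0345 beside macrophages and 0.0135 beside microglia, with log2 fold changes of 6.43 ± 1.23, 6.44 ± 1.09 and 6.44 ± 1.02 in edgeR. Of the 23 granulocyte libraries, 3 had it at 10 CPM or more, the third being library 2 of the 5x2 Gy day 3 group at 48.4 CPM, and the other 20 did not exceed 0.974 CPM. The same split stood in the other populations after 1x10 Gy: Slc15a2 was at 36.3, 32.1 and 0.189 CPM in monocytes, at 37.4, 60.3 and 5.95 in macrophages and at 9.61, 7.46 and 0.170 in microglia, low in library 3 each time. Unirradiated macrophages also reached 49.3 CPM. The labels do not say whether same-numbered libraries share a mouse, and no cause of the split was tested.

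A single 10 Gy fraction could be set directly beside 5 fractions of 2 Gy at day 3. With edgeR, 0 of 14230 genes (0%) were called, 265 had an unadjusted p under 0.05 (64 higher and 201 lower after 1x10 Gy), and the smallest adjusted p was 1. DESeq2 called 0 genes higher and 2 lower, and limma voom 0 in either direction. Tnf was at 137, 147 and 202 CPM after 1x10 Gy and at 355, 566, 362 and 415 CPM after 5x2 Gy, with no overlap, a log2 difference of -1.39 ± 0.64 and an adjusted p of 1. Tnfaip3 did not overlap either, at 408, 698 and 488 against 1940, 2320, 1270 and 749 CPM (-1.56 ± 0.60). The share of all genes without overlap between these groups is not given here. Non-overlap alone thus does not set Tnf and Tnfaip3 apart from other genes. Cdkn1a was at 346, 333 and 379 against 367, 444, 319 and 489 CPM, a log2 difference of -0.20 ± 0.43, smaller than its standard error. The microglia marker sums were also lower after 1x10 Gy, at 199 to 308 against 314 to 562 CPM, beside macrophage marker sums of 477 to 574 against 260 to 1210 CPM. Their part in the Tnf and Tnfaip3 differences was not tested.

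The same 10 Gy change was tested against that of the 3 other sorted populations, each in a joint fit of unirradiated and irradiated libraries. These fits treat libraries of different populations as independent, and whether they share mice is not in the labels. With edgeR the change differed from that of monocytes for 0 of 15306 genes (0%), with 772 at an unadjusted p under 0.05, from that of macrophages for 0 of 16794 (0%), with 1021, and from that of microglia for 0 of 16947 (0%), with 1519. DESeq2 called 3 higher and 12 lower against monocytes, 4 and 79 against macrophages and 59 and 263 against microglia, and limma voom 0 and 0, 0 and 4, and 4 and 25. Leaving out single granulocyte libraries of the small stage moved the edgeR counts. Without library 1, macrophages gave 0 higher and 4 lower and microglia 1 higher and 32 lower. Without library 3 microglia gave 0 and 2, and without library 4 they gave 0 and 33.

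Microglia of the same irradiated group did change. In the joint fit, 7 of 16947 genes (0.0413%) were called higher and 1 lower (0.0059%) in irradiated microglia with edgeR, and Phlda3, Cdkn1a and Mdm2 were among the higher ones. For granulocytes the same fit called 1 gene higher, Slc15a2, and 0 lower, with 2328 at an unadjusted p under 0.05. Cdkn1a was at 1210, 989 and 1070 CPM in irradiated microglia against 199, 306 and 436 CPM (lowest, median, highest of 10) in unirradiated ones, a log2 fold change of 1.80 ± 0.30 with an adjusted p of 0.00943. In granulocytes it was -0.39 ± 0.34 in that fit, and the difference of -2.19 ± 0.47 had an adjusted p of 0.214 in edgeR. That p was 0.0405 without the 3 libraries of doubtful quality and 0.00310 with limma voom, and DESeq2 gave none. Mdm2 rose by 1.52 ± 0.29 in microglia (adjusted p of 0.0332), at 276, 281 and 226 against 65.3, 89.9 and 115 CPM. In granulocytes Mdm2 had a fold change of 0.28 ± 0.31, and the difference of -1.23 ± 0.44 had an adjusted p of 0.371 in edgeR, 0.0444 in DESeq2 and 0.0350 with limma voom. Phlda3 rose by 5.47 ± 0.60 in microglia, with an adjusted p of 1.41e-05. In granulocytes, where its levels were near the detection limit, the fitted fold change was 2.95 ± 0.91 with an adjusted p of 0.157 in edgeR, and the difference of -2.52 ± 1.54 had an adjusted p of 0.693 in edgeR. In monocytes Cdkn1a had a fold change of -0.42 ± 0.31, a difference of 0.03 ± 0.42 from granulocytes. In macrophages it had 0.44 ± 0.32, a difference of -0.83 ± 0.47.

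**Figure D5:**
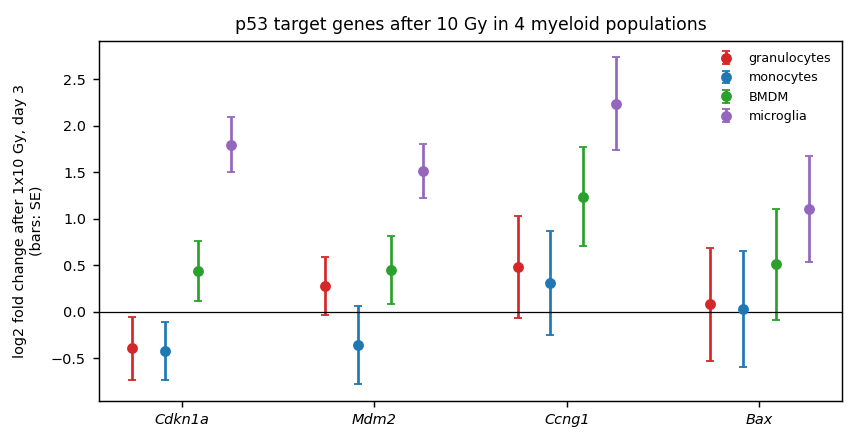
Log2 fold change after 1x10 Gy at day 3 against unirradiated for the p53 targets Cdkn1a, Mdm2, Ccng1 and Bax in granulocytes, monocytes, monocyte-derived macrophages (BMDM) and microglia, from the joint fits, with bars of 1 standard error. Cdkn1a lies at -0.39 in granulocytes and at 1.80 in microglia.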

How the data were processed

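RNA was sequenced from sorted myeloid cells. Per the submitters' processing notes the build was GRCm38 and the tools were HTSeq, TopHat2 2.0.14, DESeq2 1.18.1 and FastQC, with no role for each. Strand of counting and annotation release were not given in the sources used here, so reads of overlapping antisense genes cannot be told apart. The authors deposited 1 table of raw counts, 49585 genes by 108 libraries, used as deposited. All 37 mitochondrial genes in it are at 0. Library totals set the precision and are given in the report.

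Groups came from titles, cell type, tumour stage and radiotherapy labels. All 23 granulocyte libraries were fitted together in R 4.3.3 with edgeR 4.0.16: filterByExpr (minimum count 10, minimum total 15), TMM scaling, quasi-likelihood F-test, 1 mean per group, Benjamini-Hochberg adjustment over all genes tested, threshold 0.05. Interactions used joint fits of small, large and 1x10 day 3 groups of both populations. Fold changes are log2 ± SE with 95% intervals. Alternatives were RLE scaling, no filter, DESeq2 1.42.0, a replicate block, each stage alone as reference, the 3 compared groups alone and leaving out each library. After seeing the data, limma 3.58.1 (voom with quality weights) and fits without 3 doubtful libraries (under 3000000 counts or 12000 detected genes: small-stage library 1, 5x2 day 3 library 3 and 5x2 day 5 library 1) were added. The edgeR and DESeq2 fits of the main contrast were also run on simulated counts with the same spread set for every gene. That simulation held no library that stands apart, so it does not measure what these data could detect.

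Replicate numbers in the titles did not pair the granulocyte libraries: deviations of same-numbered libraries of different groups correlated at -0.17 to 0.13. Between granulocytes and another population of the same condition the correlations ran from -0.22 to 0.37, with 14 of 36 pairs over 0.1. The same-numbered library was the best match in 20 of the 36, among them every 1x10 Gy pair with monocytes and with microglia. The labels give no pairing, so the numbers were not used as pairs there either, and the joint fits treat the libraries as independent. If populations share mice, the standard errors of differences between populations do not account for it.

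Named genes are those past the threshold at 10 CPM or more with no overlap (none qualified), up to 6 members of each of 25 pathway lists with the smallest adjusted p, and 48 genes named anywhere; others are marked as chosen after their values were seen. Members and lists were chosen with earlier results of these data known. Of the 14230 genes tested, 14202 had an ID in GENCODE M21, which gave the coordinates on GRCm38. Gene lists come from general knowledge, and 17 of the 42 are cell type markers. Figures were drawn with matplotlib 3.10.9. A few results are not reported here.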

Additional observations from a re-analysis of the deposited data

Results flagged for a closer look

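Among 143 values checked within groups of 4 or 5 granulocyte libraries, 11 had a highest or lowest library set far from the others. For independent values with a normal spread, the limit used sets about 1 in 20 apart, which would be 7.2 of them. CPM of several genes from the same libraries need not be so, and the 11 cannot be weighed against that number. Small-stage library 1 accounted for 4: a total of 3805740 counts, the lowest of its group, and the highest levels of Cybb (1100 CPM), Padi4 (427 CPM) and Retnlg (3060 CPM). In small-stage library 3, Ccr2 was highest at 47 CPM. In the large-stage group, library 4 had the lowest Cxcl10 (4.38 CPM) and library 3 the highest Il1b (9180 CPM). After 5x2 Gy at day 3, library 2 had the highest Arg1 (20 CPM) and the lowest Csf1r (618 CPM), library 4 the lowest Cxcl2 (1120 CPM) and library 1 the highest Padi4 (107 CPM). The 3 libraries after 1x10 Gy were too few for this check.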

How the results depend on the processing

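For the 1x10 Gy comparison, edgeR called 0 genes in either direction with RLE scaling, with either stage alone as reference, with the 3 compared groups alone and without the doubtful libraries, with TMM or RLE scaling. With no filter on low counts it called 11 higher and 63 lower, and DESeq2 called 3 and 125, or 27 and 253 without the doubtful libraries. Leaving out single libraries gave 0 to 1 higher and 0 lower. A replicate block, which the pairing check does not support as a design, gave 0 higher and 1 lower (CT010467.1), or 6 lower without the doubtful libraries; 1 of 15 same-number correlations between granulocyte groups was the best for its library, and 20 of 36 between granulocytes and another population, a hint from the data and not the design. Against 5x2 Gy, no filter gave 3 higher and 14 lower, and DESeq2 0 and 2, or 0 and 7 without the doubtful libraries. For the difference from monocytes, no filter gave 1 and 54, and DESeq2 3 and 12, or 7 and 57 without the doubtful libraries. For macrophages, no filter gave 3 and 96, DESeq2 4 and 79, or 4 and 103 without the doubtful libraries, edgeR without those libraries 0 and 4, limma voom 0 and 4, and leaving out single libraries 0 higher and 0 to 4 lower. For microglia, RLE scaling gave 0 and 5, no filter 4 and 185, DESeq2 59 and 263, or 82 and 409 without the doubtful libraries, edgeR without those libraries 1 and 32, limma voom 4 and 25, and leaving out single libraries 0 to 1 higher and 0 to 33 lower. The cause was not tested for any of these changes.

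Of 196 named genes with a value, 40 changed sign under at least 1 of 24 alternatives, 12 of them without the doubtful libraries. DESeq2 called 25. RLE scaling turned 7 list medians and leaving out the doubtful libraries 4 (identity, hypoxia, double-strand break repair and granulocyte markers). Both together turned 3 (identity, double-strand break repair and granulocyte markers). Depth limits low mitosis and primary granule genes such as Top2a, Cdk1 and Elane, which stand at few reads per library.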
